A study of Mus musculus with 24 samples.

Results

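The transcriptome of *Atad2* KO testis at day 22 post-partum (PP) was compared with that at day 20 PP. The samples were chosen by their labels: the 4 KO libraries of day 22 were set against the 4 KO libraries of day 20, which are 8 of the 24 libraries of the series, over all 24456 genes counted. The study followed the first spermatogenic wave in wild-type (WT) and KO mice to see how transcription changes without ATAD2 when the first post-meiotic cells appear. WT testes of the same ages, with 4 libraries a day, and testes of days 24 and 26, with 2 libraries for each genotype and day, appear below only beside the KO values. ATAD2 binds acetylated chromatin through a bromodomain and also carries an ATPase domain. In the KO mice the first 11 exons of *Atad2* are joined to a *lacZ* reporter, and exon 12 and the *neo* cassette were removed with Cre recombinase under the CMV promoter, which is active throughout the body. All 8 libraries carry this allele, so the germ cells and the somatic cells of the testis both lack ATAD2 at both ages. The libraries were made from total RNA of testis depleted of ribosomal RNA. Libraries are named by genotype, day and replicate, as in KO_d22_2, and values of the 4 libraries of a day are given in the order of replicates 1 to 4.

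In the juvenile testis germ cells advance together. Spermatogonia multiply by mitosis, spermatocytes pass through meiosis, and the divisions of meiosis give haploid round spermatids. Round spermatids build the acrosome and the flagellum, and elongating spermatids evict most histones and pack their DNA with transition proteins and then protamines. Sertoli cells, peritubular muscle-like cells, Leydig cells, macrophages and vessels make up the somatic part of the tissue.

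The 8 libraries held 13587941 to 16970714 counts assigned to genes. Germ cell, Sertoli cell and Leydig cell markers were present in each of them, with *Sycp3* at 221 to 405 counts per 1000000 assigned counts (CPM), *Sox9* at 61.1 to 86.8 CPM and *Insl3* at 16 to 63.1 CPM. The deposited protocol also describes the purification of spermatogenic cell fractions, and by these markers the libraries contained the somatic cells of the testis. Epididymis RNA differed between libraries. *Crisp1*, a secreted epididymal protein, stood at 42.6 CPM in KO_d20_3 and 113 CPM in KO_d22_1 and at no more than 0.542 CPM in the other 6. KO_d22_4 stood apart by its share of read pairs with several alignments, 4.74% against 7.83% to 8.50% in the others. The study describes the samples of a group as biological replicates, and no label names the animal or litter of a library. Its methods count fewer samples at day 20 than the labels give, and all labelled libraries were used.

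*Atad2* itself was measured first. The gene lies on the minus strand of chromosome 15 (mm10, chr15:58094044-58135082). Its level was 30.8, 37.1, 36.0 and 32.2 CPM at day 20 and 33.8, 45.3, 41.1 and 35.3 CPM at day 22. The ranges of the days overlapped, and the log2 fold change of 0.19 (SE 0.181, adjusted p = 0.508) did not pass the test. WT testis held 109 CPM at day 20 and 84.8 CPM at day 22 (means, n = 4). The counts are summed over the gene, so they include the exons that the allele keeps and give no check of exon 12.

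The libraries of each day were spread widely along the course of spermatogenesis. On the first principal component of all 24 libraries, which held 67.5% of the variance and broadly ordered them by age, the KO libraries of day 20 lay at -66.77, -94.19, -34.11 and -14.28 and those of day 22 at -13.59, 59.92, 23.18 and -6.53. The groups did not overlap, but KO_d20_4 and KO_d22_1 were next to each other. KO_d22_2 lay above both WT libraries of day 24, at 59.01 and 50.89. The mean rose from -52.34 ± 35.31 to 15.74 ± 33.48 (SD, n = 4), with an exact two-sided permutation p of 0.0286, the smallest that 4 against 4 can give. In WT the same component rose from -106.92 ± 13.83 to -24.60 ± 11.33 (SD, n = 4). The SDs on this component were larger in KO at both days. Over single genes the median SD of log2 values was smaller in KO than in WT at day 20, at 0.209 against 0.359, and larger at day 22, at 0.249 against 0.161. The WT group of day 20 includes WT_d20_2, with 13.68% of read pairs with several alignments and 3.261% mitochondrial counts. The other WT libraries of day 20 held 5.979% to 8.799% and 0.484% to 0.816%. The part of WT_d20_2 in the WT spread was not tested.

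**Figure D1:**
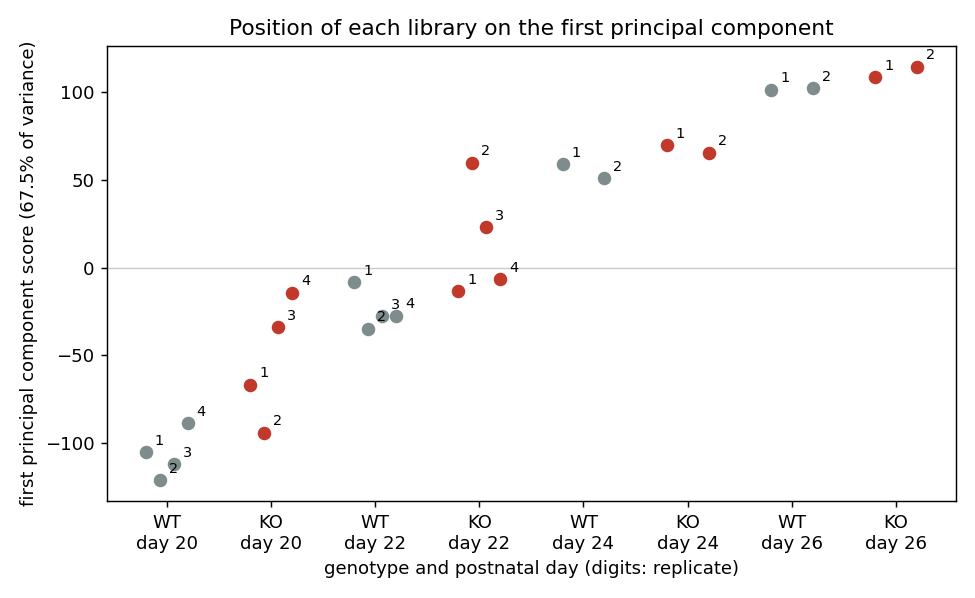
First principal component score (vertical axis, no unit) of the 24 libraries, by genotype and day (horizontal axis). Each point is 1 library with its replicate number, KO in red and WT in grey. KO_d20_4 at -14.28 and KO_d22_1 at -13.59 lie side by side, and KO_d22_2 at 59.92 lies among the libraries of day 24.

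Between days 20 and 22 most genes of the acrosome, flagellum and spermatid marker lists were called higher. Of 17170 genes tested, 1821 (10.6%) were called at an adjusted p under 0.05 in edgeR's quasi-likelihood test, 1266 higher (7.37%) and 555 lower (3.23%) at day 22. The rises were the larger changes. Their median log2 fold change was 1.42 against -0.67 for the falls, and 759 rises and 106 falls were at least 2-fold. The median over all genes tested was -0.03, and 8046 of the 17170 log2 fold changes were above 0. Of the genes called higher, 607 of 1266 (47.9%) had every library of day 22 above every library of day 20, and of those called lower 419 of 555 (75.5%) had every library below. Over all genes tested such a separation was found for 7.13% in the upward and 6.21% in the downward direction.

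Most calls depended on 3 libraries. Without KO_d20_2, the KO library with the lowest first component score, 4 genes were called, and without KO_d22_2, the one with the highest, 6 were called. Without KO_d20_1 the count was 126, of which 125 were among the 1821, and the balance turned round, with 46 higher and 80 lower. At an unadjusted p under 0.05 in edgeR's test these 3 fits held 3611, 3263 and 4262 genes, against 4911 with all libraries. The spread was also shared with the other groups. In a fit on the 8 KO libraries alone edgeR called 0 genes, with 4098 at an unadjusted p under 0.05 and a lowest adjusted p of 0.0829, and DESeq2 on the same 8 libraries called 1697. In every fit that left out 1 library the 68 called genes that the rule for naming genes selected kept their direction. These genes were selected as called in the same data, so their kept direction was largely fixed in advance and is no independent support.

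**Figure D2:**
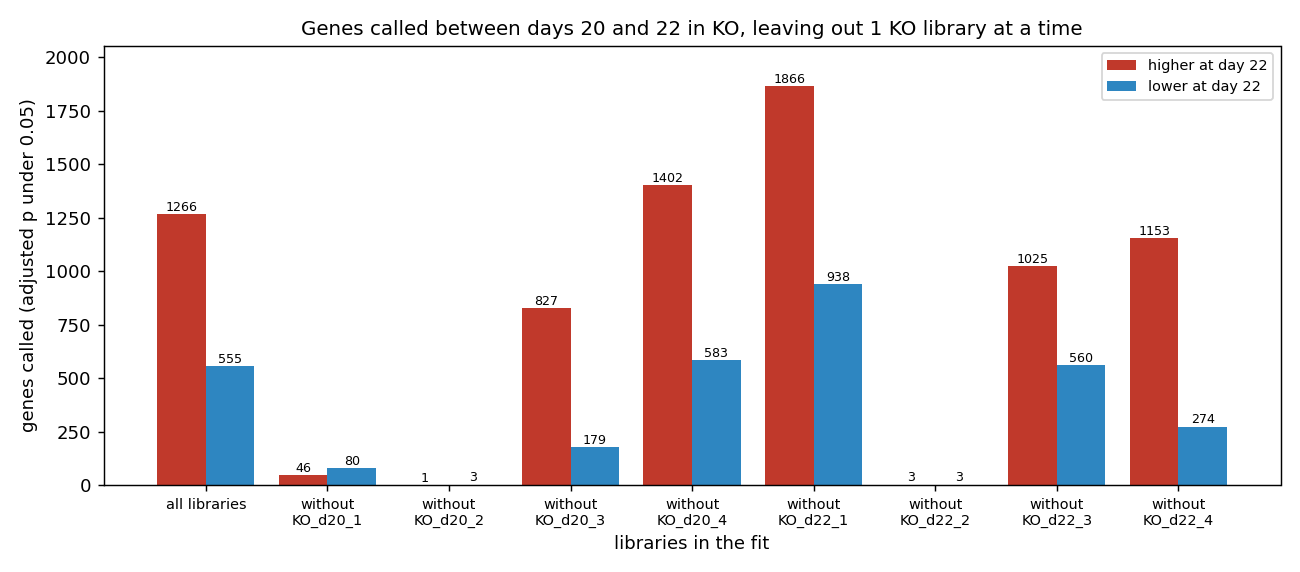
Number of genes called at an adjusted p under 0.05 (vertical axis) with all libraries and with 1 KO library left out (horizontal axis), higher at day 22 in red and lower in blue. The counts of 1266 and 555 with all libraries fall to 1 and 3 without KO_d20_2 and to 3 and 3 without KO_d22_2.

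The firmest changes were in 4 genes, *Lbh*, *Hmcn1*, *Cilp* and *Zscan10*, which were called in each of the 24 fits that left out 1 library. *Lbh*, a transcription cofactor first known from limb bud and heart (chr17:72918305-72941947), stood at 21.8, 33.3, 29.1 and 32.1 CPM at day 20 and at 13.4, 11.1, 14.1 and 8.58 CPM at day 22. Every library of day 22 was below every library of day 20. *Lbh* changed by -1.30 on the log2 scale (SE 0.157), with the lowest adjusted p of the comparison, 0.000772. It was also the one gene still called with KO_d20_2 and KO_d22_2 both left out (adjusted p = 0.0497). In WT *Lbh* changed by -0.35 on the log2 scale (adjusted p = 0.115), and the difference between the genotypes was -0.96 (SE 0.218, adjusted p = 0.186).

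*Hmcn1* encodes hemicentin, a large protein of the extracellular matrix (chr1:150562524-150993435). Its level was 26.0, 38.7, 37.8 and 29.2 CPM at day 20 and 15.6, 10.0, 16.7 and 11.1 CPM at day 22, with a log2 fold change of -1.30 (SE 0.193, adjusted p = 0.00645). The WT change was -0.63 (adjusted p = 0.0224), also downward. *Cilp*, a secreted matrix protein named from cartilage (chr9:65265180-65280605), fell from 2.61, 5.56, 5.02 and 4.20 CPM to 1.57, 0.601, 0.791 and 0.670 CPM, by 2.24 on the log2 scale (SE 0.321, adjusted p = 0.00565). In WT it was level between the days, at 6.01 and 6.83 CPM (means, n = 4). The difference between the genotypes was -2.42 (SE 0.422), with an adjusted p of 0.0816 that missed the threshold.

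*Zscan10*, a zinc finger transcription factor known from pluripotent stem cells (chr17:23600856-23611019), was the one of the 4 that rose. It stood at 0.798, 0.589, 1.19 and 1.96 CPM at day 20 and at 2.78, 4.63, 3.89 and 4.02 CPM at day 22. The groups did not overlap. It rose by 1.75 on the log2 scale (SE 0.269, adjusted p = 0.00796), and by 2.94 in WT (adjusted p = 2.88e-05). Without KO_d22_2 2 more genes were called. *Slc16a7*, a monocarboxylate transporter, rose from 46.8 ± 7.78 to 101 ± 38.2 CPM (SD, n = 4; adjusted p = 0.00924), with a log2 fold change of 1.11 in KO and in WT. *Ly6g6c*, a surface protein of the Ly6 family, had at most 3 counts in each library of day 20 and rose to 0.303, 3.07, 1.19 and 0.737 CPM (adjusted p = 0.0143), at least 6.49-fold higher than the mean floor of 3 counts per library. *Zscan10*, *Slc16a7* and *Ly6g6c* were singled out after their values were seen.

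**Figure D3:**
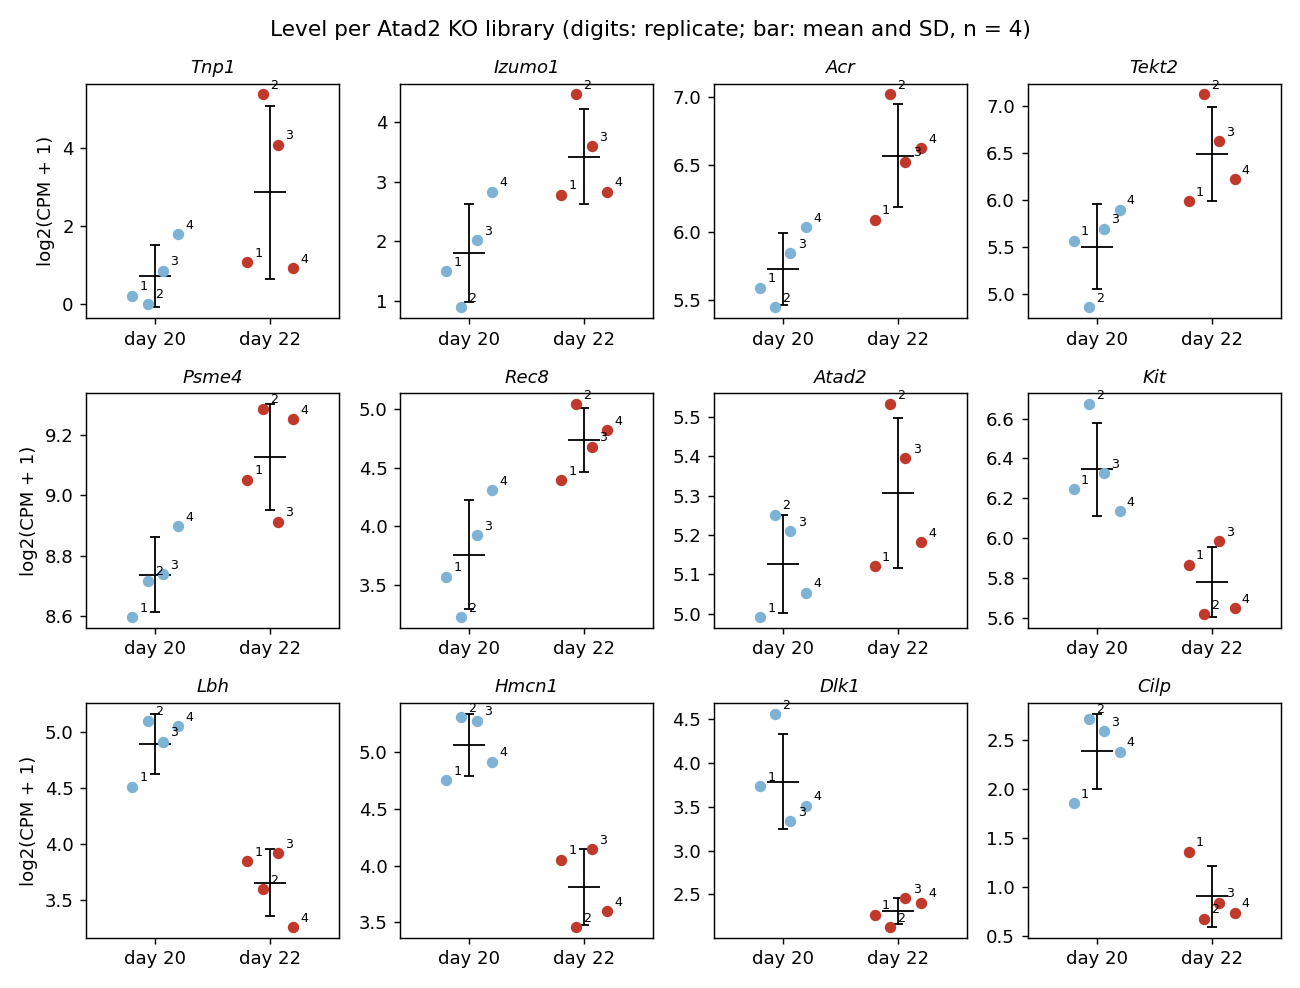
Level of 12 genes in the 8 KO libraries as log2(CPM + 1) (vertical axis, with its own range in each panel), by day (horizontal axis). Points are libraries with their replicate numbers, and bars are the mean and SD (n = 4). *Tnp1* is high in KO_d22_2 and KO_d22_3 and overlaps between the days elsewhere, while *Lbh*, *Hmcn1*, *Cilp*, *Dlk1* and *Kit* are lower in all 4 libraries of day 22.

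Genes for the packing of the sperm nucleus were higher at day 22, and the rise came from a pair of libraries. Of the 5 transition protein and protamine genes, 4 were called higher and none lower, with a median log2 fold change of 3.25. *Tnp1*, a transition protein (chr1:73015074-73015909), stood at 0.145, 0, 0.793 and 2.44 CPM at day 20 and at 1.09, 40.3, 15.9 and 0.872 CPM at day 22. This was a rise of 4.10 on the log2 scale (SE 1.05, adjusted p = 0.0254). KO_d22_2 and KO_d22_3 were above every library of day 20, and KO_d22_1 and KO_d22_4 were within the range of day 20. *Tnp2*, *Prm2* and *Prm3* showed the same 2 high libraries, at 48.1 and 18.5 CPM, 45.3 and 15.8 CPM, and 6.97 and 3.49 CPM. *Prm1*, the main protamine gene, was at 65.3 and 21.6 CPM in these libraries and at 1.69 and 1.34 CPM in KO_d22_1 and KO_d22_4, and its log2 fold change of 3.0 (SE 1.01) gave an adjusted p of 0.0633. None of the 5 genes separated the days without overlap. Without KO_d22_2 the list's median was 2.01 and none was called, without KO_d22_4 it was 3.63 and all 5 were called, and DESeq2 on all libraries called 1. In WT the median was 1.88, with *Prm3* called.

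Some histone variants of the testis were higher at day 22. Of 12 tested, 4 were called higher and none lower, with a median log2 fold change of -0.11. Those called were *H1fnt*, a linker histone of elongating spermatids (3.39), *Hils1*, a related linker histone (2.35), *H2afb1*, a short histone H2A (3.69), and *1700024P04Rik*, the gene of H2A.L.2 that opens nucleosomes for transition proteins (2.73). *H1fnt* was at 0.290, 0.196, 1.12 and 2.78 CPM at day 20 and at 2.24, 28.9, 10.9 and 4.16 CPM at day 22 (adjusted p = 0.0200). KO_d22_1 was within the range of day 20 and the other 3 libraries above it. *Hist1h1t*, the linker histone of spermatocytes, was at 448 to 834 CPM at day 20 and at 291 to 808 CPM at day 22, with a log2 fold change of -0.28 (adjusted p = 0.676). *Hist1h2ba* and *Hist1h2aa*, the testis histones H2B and H2A of meiotic cells, gave -0.23 and -0.36, and *Hist3h2ba* gave -0.83 (adjusted p = 0.110). KO_d22_4 was the lowest of the 8 libraries for all 4 of these genes. *H3f3a* and *H3f3b*, the genes of histone H3.3, gave -0.05 and 0.04, and *H2afx* and *Hist1h4c* gave -0.18 and -0.28, none of them called.

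Several factors that open chromatin for histone removal were higher at day 22. Of 17 histone eviction factors, 7 were called higher and none lower, with a median of 0.35. *Psme4*, the proteasome activator that targets acetylated histones, stood at 386, 420, 426 and 476 CPM at day 20 and at 530, 624, 481 and 609 CPM at day 22. All libraries of day 22 were above those of day 20, a rise of 0.39 on the log2 scale (SE 0.104, adjusted p = 0.0253). *Nutm1*, which recruits the p300 acetyltransferase in spermatids, gave 1.09 (adjusted p = 0.0225), and *Hspa4l*, a chaperone, gave 0.41 (adjusted p = 0.0293). *Phf7*, an ubiquitin ligase for histones, gave 0.51, *Chd5*, a remodelling ATPase, 1.56, *Tssk6*, a spermatid kinase, 1.93, and *Kat5*, an acetyltransferase, 0.37, all called. *Brdt*, the testis bromodomain protein that compacts acetylated chromatin, gave 0.24 (adjusted p = 0.182). Without KO_d20_2 or without KO_d22_2 none of the list was called, with medians of 0.30 and 0.31, and without KO_d22_4 3 were.

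Histone chaperones and bromodomain proteins related to ATAD2 moved little. One of 23, *Nasp*, a chaperone of linker histones and of H3, was called higher, and the median was 0.04. *Nasp* was at 405, 345, 391 and 393 CPM at day 20 and at 378, 789, 585 and 556 CPM at day 22, a rise of 0.59 on the log2 scale (SE 0.162, adjusted p = 0.0286). KO_d22_1 was inside the range of day 20. *Hira*, the chaperone that deposits H3.3, was at 27.1 to 31.6 CPM at day 20 and at 22.2 to 28.7 CPM at day 22 (log2 fold change -0.23, adjusted p = 0.224). *Atad2b*, the paralogue of *Atad2*, gave -0.19 (adjusted p = 0.362), and *Chaf1a* and *Brd2* gave 0.55 and 0.39 (adjusted p = 0.0879 and 0.135).

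Most acrosome genes were called higher. Of 32 tested, 24 were called higher and none lower, all 32 had a positive log2 fold change, and the median was 1.72. *Acr*, the gene of the acrosomal protease acrosin, stood at 47.2, 42.6, 56.5 and 64.7 CPM at day 20 and at 67.4, 129, 91.0 and 97.7 CPM at day 22. The days did not overlap. *Acr* rose by 0.87 on the log2 scale (SE 0.246, adjusted p = 0.0321). *Izumo1*, the sperm protein that binds the egg membrane, was at 1.81, 0.850, 3.04 and 6.10 CPM and then at 5.87, 21.1, 11.1 and 6.10 CPM (log2 fold change 1.90, adjusted p = 0.0200). KO_d20_4 reached the lower libraries of day 22. *Ccin*, the gene of the calyx protein calicin beneath the acrosome, was at 0.943, 0.392, 0.727 and 3.25 CPM and then at 3.09, 30.5, 11.4 and 3.15 CPM (log2 fold change 3.18, adjusted p = 0.0200). *Spaca1*, *Spaca3* and *Acrv1*, proteins of the acrosomal membrane and matrix, gave 1.49, 2.05 and 1.89. Of the 32 genes, 9 separated the days without overlap. None was called without KO_d20_2 or without KO_d22_2, and without both the median was 0.97.

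Most flagellum genes were also called higher. Of 35 outer dense fibre and fibrous sheath genes, 25 were called higher, none lower, and all 35 log2 fold changes were positive, with a median of 1.02. *Tekt2*, a filament protein inside flagellar microtubules, was at 46.6, 28.1, 51.0 and 58.7 CPM at day 20 and at 62.7, 139, 98.1 and 73.7 CPM at day 22. The days did not overlap (log2 fold change 1.02, SE 0.220, adjusted p = 0.0200). *Akap4*, the main fibrous sheath protein, was at 7.04, 2.42, 20.4 and 40.2 CPM and then at 38.5, 193, 89.9 and 39.2 CPM (log2 fold change 2.37, adjusted p = 0.0272). KO_d20_4 was above KO_d22_1 and KO_d22_4 for *Akap4*. *Odf1* and *Smcp*, proteins of the outer dense fibres and the mitochondrial sheath, gave 2.03 and 2.56, and *Cabs1* and *Spag4* gave 4.15 and 1.70.

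Members of the ion channel, glycolysis, kinase and protease lists were also higher at day 22. Of 18 sperm ion channel genes 8 were higher and none lower (median 0.50), among them *Efcab9* (1.89), a subunit of the CatSper calcium channel, *Kcnu1* (1.39), the sperm potassium channel, and *Catsper2* (0.58). Of 16 germ cell glycolysis genes 7 were higher and none lower (median 0.42), among them *Gapdhs* (2.10), *Aldoart2* (1.68), *Pgam2* (0.79) and *Eno4* (0.65), isoforms of glycolytic enzymes. Of 35 testis serine kinases and proteases 19 were higher and none lower (median 0.93), among them *Tssk3* (1.96) and *Tssk2* (2.30), kinases of spermatids, and *Adam1a* (1.5) and *Adam6a* (2.98), sperm surface proteins. *Pgam2* was at 81.1 to 103 CPM at day 20 and at 110 to 218 CPM at day 22, with no overlap.

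Some regulators of spermatid transcription and mRNA storage were higher at day 22. Of 31 tested, 10 were called higher and none lower, and the median was 0.45. *Pabpc2*, a testis poly(A)-binding protein, was at 523, 444, 421 and 413 CPM at day 20 and at 625, 787, 616 and 622 CPM at day 22, with no overlap (log2 fold change 0.56, SE 0.134, adjusted p = 0.0207). *Spz1*, a spermatid transcription factor of the helix-loop-helix class, rose from 14.2 ± 12.3 to 62.8 ± 44.8 CPM (SD, n = 4; log2 fold change 2.15, adjusted p = 0.0221). *Fhl5*, a partner of the spermatid activator CREM, was at 1.6, 0.915, 3.24 and 5.55 CPM and then at 6.29, 30.4, 15.4 and 4.02 CPM (log2 fold change 2.31, adjusted p = 0.0200). KO_d22_4 was within the range of day 20. *Crem* was at 123 to 159 CPM at day 20 and at 132 to 205 CPM at day 22 (log2 fold change 0.26, adjusted p = 0.260). *Ybx2* and *Papolb*, which bind and extend stored mRNAs, gave 0.83 and 0.46 and were called.

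CREM binds the cyclic AMP response element. The promoters of *Ccin* and *Izumo1* carry its palindrome, and those of *Fhl5* and *Prm1* a form that differs in 1 letter. These 4 genes were picked after their values were seen, because they hold these letters. *Ccin*, *Izumo1* and *Fhl5* were called higher and *Prm1* was not. The sequences are those of RefSeq on GRCm38.p6, from 250 bases before to 50 after the gene start. They run 5′ to 3′ on the gene's strand, with the palindrome or the form in capitals.
Ccin, plus strand, chr4:43983254-43983553: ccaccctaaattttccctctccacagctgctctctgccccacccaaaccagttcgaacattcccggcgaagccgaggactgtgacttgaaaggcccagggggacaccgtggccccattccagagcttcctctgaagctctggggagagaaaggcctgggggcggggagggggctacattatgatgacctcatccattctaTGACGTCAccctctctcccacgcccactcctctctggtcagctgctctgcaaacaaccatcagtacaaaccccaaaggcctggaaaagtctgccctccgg
Izumo1, plus strand, chr7:45621561-45621860: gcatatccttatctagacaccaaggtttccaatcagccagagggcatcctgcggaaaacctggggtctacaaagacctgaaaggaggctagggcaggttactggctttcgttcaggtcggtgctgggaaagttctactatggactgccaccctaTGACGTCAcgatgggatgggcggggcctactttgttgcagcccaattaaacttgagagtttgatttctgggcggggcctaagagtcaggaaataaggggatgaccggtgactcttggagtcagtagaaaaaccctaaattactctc
Fhl5, minus strand, chr4:25242803-25243102: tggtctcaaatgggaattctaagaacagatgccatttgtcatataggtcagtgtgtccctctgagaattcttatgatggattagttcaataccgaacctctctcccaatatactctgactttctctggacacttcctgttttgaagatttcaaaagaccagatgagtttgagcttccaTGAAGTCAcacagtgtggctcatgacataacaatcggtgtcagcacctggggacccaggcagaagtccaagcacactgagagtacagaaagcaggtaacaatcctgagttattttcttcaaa
Prm1, minus strand, chr16:10796774-10797073: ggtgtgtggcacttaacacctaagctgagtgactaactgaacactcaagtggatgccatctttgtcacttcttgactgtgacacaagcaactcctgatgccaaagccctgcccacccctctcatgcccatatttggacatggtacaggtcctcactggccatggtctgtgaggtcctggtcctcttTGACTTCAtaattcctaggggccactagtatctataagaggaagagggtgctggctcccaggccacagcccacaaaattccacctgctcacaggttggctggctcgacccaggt

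The letters in capitals begin at position -50 from the gene start in *Ccin*, -96 in *Izumo1*, -72 in *Fhl5* and -64 in *Prm1*. The palindrome TGACGTCA was found in 2.98% of the 12861 tested genes with a promoter in the table and in 3.43% of the 963 called higher. Among the 405 called lower it was found in 2.22%. The form TGACTTCA, searched on both strands and so including TGAAGTCA, was found in 1.25% of all and in 2.49% of those called higher (24 promoters). Among the 405 called lower it was found in 0.494%, which is 2 promoters. The forms differ in 1 letter, so no site counts for both. The TATA letters TATAAA were in 8.02% of all promoters, 10.3% of those called higher and 7.65% of those called lower. These are shares of matching letters, given as a description without a test.

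Markers of haploid cells were higher at day 22. Of 20 round spermatid markers 16 were called higher and none lower (median 1.95), and of 20 elongating spermatid markers 19 were higher and none lower (median 2.31). Most markers of both lists are also members of the lists above, so these counts repeat many of the same genes. The round spermatid score, the mean of centred log2 CPM over the list, was -1.66, -2.71, -0.67 and -0.03 in the libraries of day 20 and -0.08, 1.69, 0.85 and 0.18 in those of day 22. KO_d20_4 and KO_d22_1 crossed. *Gsg1*, a spermatid membrane protein that binds a poly(A) polymerase, was at 10.5, 4.18, 18 and 28.8 CPM and then at 28.7, 113, 58.7 and 38 CPM (log2 fold change 1.96, adjusted p = 0.0200). In bulk tissue fewer cells of a type and less RNA per cell cannot be told apart, nor can more cells and more RNA.

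**Figure D4:**
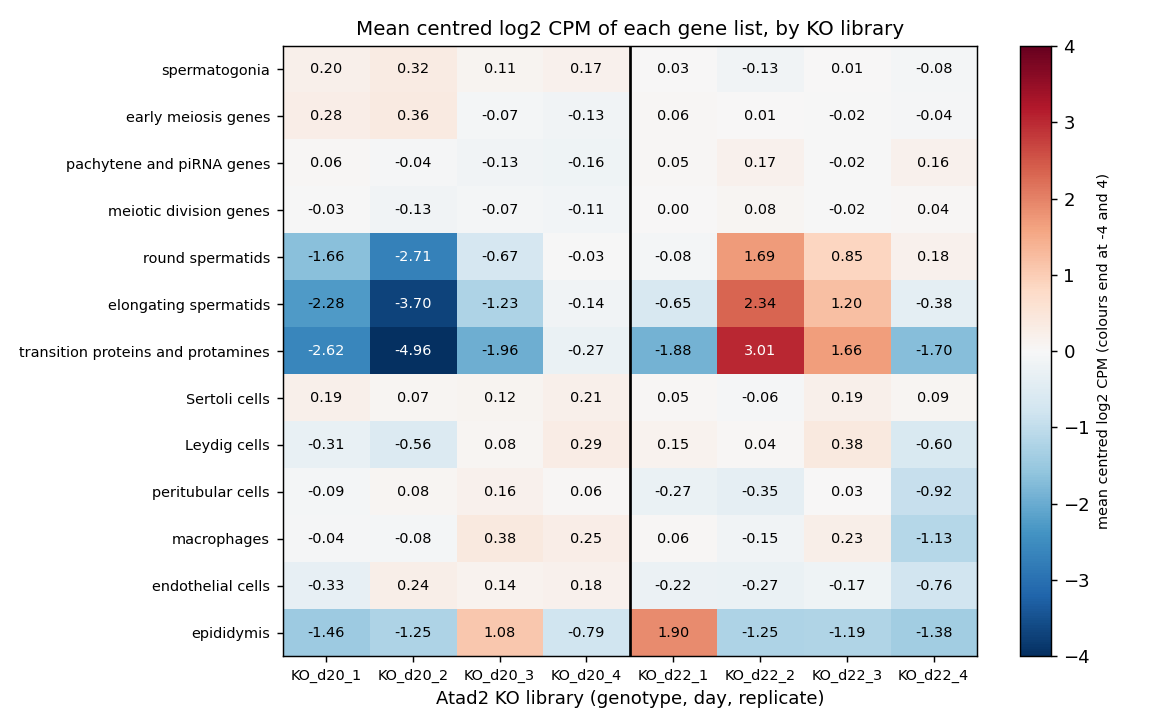
Mean centred log2 CPM of 13 gene lists (rows) in the 8 KO libraries (columns), with colours that saturate at -4 and 4 and the value in each cell. Round spermatid scores run from -2.71 in KO_d20_2 to 1.69 in KO_d22_2, and KO_d22_4 is lowest for macrophages at -1.13.

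Genes of meiosis changed little over this interval. Of 32 early meiosis genes 1 was called higher, *Rec8*, a subunit of meiotic cohesin, and none lower, with a median of -0.19. *Rec8* was at 10.9, 8.37, 14.2 and 18.8 CPM at day 20 and at 20.0, 31.9, 24.6 and 27.2 CPM at day 22, with no overlap (log2 fold change 0.99, SE 0.230, adjusted p = 0.0200). *Dmc1*, the meiotic recombinase, gave -0.40 (adjusted p = 0.125), and *Stag3*, another cohesin subunit, gave 0.27 (adjusted p = 0.126). Of 31 pachytene and piRNA genes 2 were higher and none lower (median 0.17), beside 7.37% and 3.23% of all genes tested. These were *Clgn*, a chaperone of the endoplasmic reticulum in spermatocytes, at 402 to 498 CPM and then 508 to 756 CPM (0.56, adjusted p = 0.0200), and *Ccna1*, the germ cell cyclin A, at 56.4 to 72.7 CPM and then 91.4 to 111 CPM (0.62, adjusted p = 0.0242). Neither overlapped between the days.

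Among 29 meiotic division genes 3 were called higher and 1 lower. These counts, and those of the spermatogonial markers below, are near the shares over all genes tested, 7.37% higher and 3.23% lower. Those higher were *Ccna1*, *Cdc25a*, a phosphatase that activates cyclin kinases (0.37), and *Ccnb2*, a B-type cyclin (0.43). *Ccnb3*, a cyclin of early meiotic prophase, was lower at -0.61, with an adjusted p of 0.0498, and the list median was 0.08. None of 25 DNA replication genes was called by edgeR or by DESeq2 and none had an unadjusted p under 0.05, and the median was -0.05, with *Pola1*, *Prim1* and *Mcm4* nearest to a call (adjusted p = 0.182, 0.233 and 0.247). Of 19 spermatogonial markers 1 was called each way, with a median of -0.28. *Kit*, the receptor of differentiating spermatogonia, fell from 74.9, 101, 79.2 and 69.3 CPM to 57.4, 48.1, 62.3 and 49.2 CPM (-0.58 on the log2 scale, SE 0.148, adjusted p = 0.0236), as in WT at -0.58 (adjusted p = 0.00905). *Id4*, an inhibitor of DNA binding used to mark spermatogonial stem cells, was higher, at 30.2 to 33.3 CPM and then 40.6 to 60.8 CPM (0.55, adjusted p = 0.0236). The days did not overlap for either gene, and 17 of the 19 log2 fold changes were not above 0.

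Calls in the somatic marker lists were few in number. Over all genes tested 7.37% were called higher and 3.23% lower. The 24 Sertoli cell markers had a median log2 fold change of -0.11. *Shbg* and *Cst12*, a steroid-binding globulin and a cystatin of Sertoli cells, gave -0.43 and -0.47 and were not called. Of 19 Leydig cell markers *Dlk1* was called lower and none higher, with a median of 0.13. *Cyp17a1*, an enzyme of androgen synthesis, ran from 31.3 CPM in KO_d20_2 to 375 CPM in KO_d22_3 and was not called (log2 fold change 1.06, adjusted p = 0.148).

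Peritubular, macrophage and endothelial lists had medians of -0.43, -0.18 and -0.44. At an unadjusted p under 0.05 by edgeR, 8 of 13, 3 of 16 and 5 of 14 of their genes were lower and none higher. Over all 17170 genes 4911 had such a p in either direction. *Tagln* and *Acta2*, smooth muscle proteins of peritubular cells, were called lower at -0.93 and -0.62 (adjusted p = 0.0287 and 0.0467), *Cd163*, a scavenger receptor of macrophages, at -1.15 (adjusted p = 0.0325), and *Kdr*, the VEGF receptor of endothelium, at -1.10 (adjusted p = 0.0200). KO_d22_4 was the lowest library for these lists. Summed over 16 macrophage markers it held 179 CPM against 331 to 460 CPM in the other libraries of day 22 and 302 to 438 CPM at day 20. Over 13 peritubular markers it held 539 CPM against 738 to 1020 CPM at day 22 and 1020 to 1170 CPM at day 20. Without KO_d22_4 the medians were -0.33, 0.07 and -0.27, *Kdr* was the one gene of the 3 lists still called, and the count of genes called lower over all genes was 274. *Tagln*, *Acta2* and *Cd163* then gave -0.77, -0.44 and -0.88. The part of this library in the somatic falls was otherwise not tested. Of 3 blood cell markers tested none was called by edgeR or by DESeq2 and 1 had an unadjusted p under 0.05, while 4 of the list's 7 genes were at 0 in all 8 libraries. Of 7 epididymis genes tested 1 was called higher, *Ros1*, a receptor kinase, which had at most 0.61 CPM at day 20 and 0.395 to 1.68 CPM at day 22 (adjusted p = 0.0301). Without KO_d20_3 and KO_d22_1, the libraries with epididymis RNA, *Ros1* gave 1.99 on the log2 scale and was not called (adjusted p = 0.0703). In that fit 1 gene of the list was called lower.

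**Figure D5:**
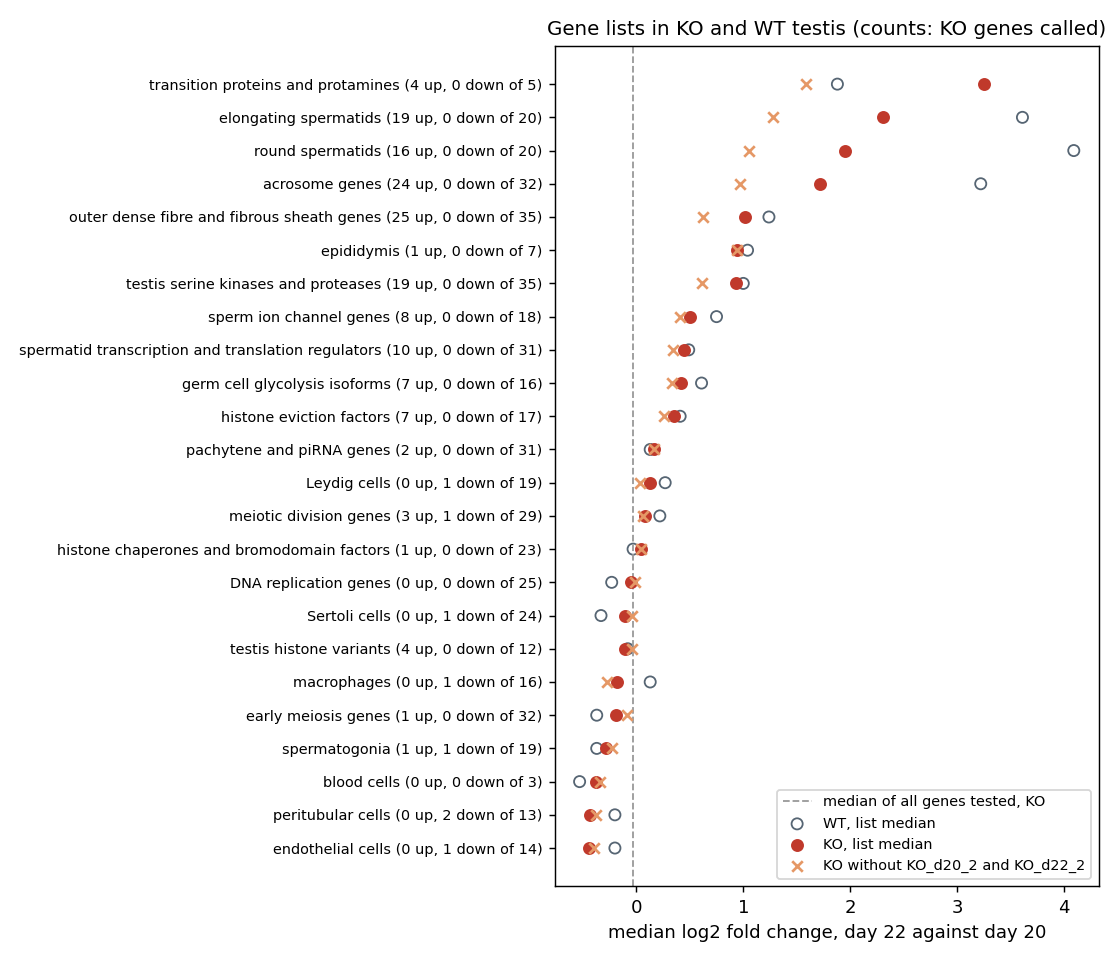
Median log2 fold change from day 20 to day 22 (horizontal axis) of 24 gene lists (vertical axis, with the number of members called higher and lower of those tested in KO). Filled points are KO, open points WT, crosses KO without KO_d20_2 and KO_d22_2, and the dashed line is the median of all genes tested at -0.03. Spermatid lists lie to the right in every setting shown, and the acrosome list is at 1.72 in KO, 3.22 in WT and 0.97 without the 2 libraries.

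The 10 largest falls among called genes with a mean of at least 5 CPM that separated the days included *Lbh* and *Hmcn1*. They were chosen by these values, which are given as a description. *Dlk1*, a Notch-like membrane protein of immature Leydig cells, was at 12.3, 22.6, 9.11 and 10.4 CPM and then at 3.81, 3.37, 4.48 and 4.29 CPM, with a log2 fold change of -1.77. The day 22 values lay close together and included KO_d22_4. *Igfbp3*, a binding protein of insulin-like growth factors, gave -1.45, *Angptl2*, a secreted angiopoietin-like protein, -1.40, *Gpc3*, a membrane proteoglycan, -1.32, *Plxna4*, a semaphorin receptor, -1.30, *Tgfb2*, a growth factor, -1.28, *Thbs2*, a matrix thrombospondin, -1.27, and *Zfp521*, a zinc finger factor, -1.26. Without KO_d22_4 the log2 fold changes of the 10 genes were -1.11 or lower. In WT 2 of the 10, *Hmcn1* and *Thbs2*, were called lower.

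The 10 largest rises under the same rule were *Fam166a* (2.89), *AI507597* (2.75), *Hspa1l* (2.71), *Slfnl1* (2.53), *Ccdc183* (2.51), *Usp50* (2.36), *Arrdc5* (2.27), *Fscb* (2.26), *Tbc1d21* (2.21) and *G6pd2* (2.19). *Hspa1l*, the testis member of the HSP70 chaperones, was at 1.89, 1.18, 3.30 and 5.01 CPM at day 20 and at 6.05, 45.5, 16.9 and 5.83 CPM at day 22. Its lower libraries of day 22 were close to KO_d20_4, as they were for *G6pd2*, a retrogene copy of glucose-6-phosphate dehydrogenase, at 0.943, 0.196, 2.31 and 4 CPM and then 4.42, 14.7, 9.29 and 5.77 CPM. *Fscb*, a fibrous sheath protein, reached 82.2 CPM in KO_d22_2 from 0.915 CPM in KO_d20_2. In WT 8 of the 10 were called higher, and *Hspa1l* and *Slfnl1* were not (adjusted p = 0.0605 and 0.514).

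Genes of the sex chromosomes lay slightly below the autosomes. Of 740 tested genes on X and Y, 64 were called higher (8.65%) and 40 lower (5.41%), against 1197 (7.31%) and 515 (3.14%) of 16382 autosomal genes. Their median log2 fold change was -0.23 against -0.02, and in WT it was -0.27 against -0.02. The median was -0.21 without KO_d20_2 and without KO_d22_2.

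In WT testis 3437 genes were called over the same interval (20%), 2210 higher (12.9%) and 1227 lower (7.15%). Of the 1266 genes higher in KO, 897 were also higher in WT, 70.9% of the KO and 40.6% of the WT list. Of the 555 lower in KO, 147 were also lower in WT, 26.5% and 12% of the lists, and 0 were called in opposite directions. Without WT_d20_2, which had the largest share of pairs with several alignments and the fewest assigned counts (10709667), the counts were 3695 in KO and 3764 in WT. The test of the difference between the genotypes called 1 gene (0.00582%), with 1441 at an unadjusted p under 0.05. With RLE scaling it called 0 (1468 at an unadjusted p under 0.05), and without KO_d20_2 it called 77.

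That gene was *Gm6408*, a predicted gene (chr5:146481965-146484704). In KO it was at 1.6, 1.05, 2.38 and 2.17 CPM at day 20 and at 3.03, 3.55, 2.77 and 3.49 CPM at day 22, a log2 change of 0.83. In WT it was at 0.105 to 0.432 CPM and then at 2.45 to 3.68 CPM, a log2 change of 3.40. The difference was -2.57 (SE 0.404, adjusted p = 0.0450), and the genotypes were at like levels at day 22. *Speer4b* and *4930533N22Rik* had the same form, with smaller KO changes of 0.68 and 1.16 beside WT values at day 20 of no more than 0.792 and 0.0786 CPM, and their differences were not called (adjusted p = 0.0816 and 0.113). *Ssxb8*, at 0.0654 to 0.948 CPM in the KO libraries, gave an adjusted p of 0.107. *Speer4b* and *Ssxb8* belong to families of near-identical copies, and read pairs with several alignments were discarded, so their levels are uncertain.

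Spermatid lists had smaller medians in KO than in WT, from a higher level at day 20. The acrosome median was 1.72 in KO and 3.22 in WT, and the acrosome score at day 20 averaged -1.02 for KO and -2.88 for WT, and at day 22 0.58 and -0.14 (n = 4). Of the 32 acrosome genes 17 had an unadjusted p under 0.05 for a smaller change in KO, and none was called after adjustment. Over all genes tested 1032 of 17170 had such a p with the KO change below the WT change, and 409 with it above. Round spermatid markers gave medians of 1.95 and 4.09 with 8 of 20 such genes. For transition proteins and protamines the medians were 3.25 in KO and 1.88 in WT, but the KO median was 2.01 without KO_d22_2 and 1.59 without KO_d20_2 and KO_d22_2, and none of the 5 differences had an unadjusted p under 0.05.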

How the data were processed

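Whole-testis total RNA was measured by strand-specific, ribosome-depleted sequencing of read pairs. The authors aligned the reads to mm10 with STAR 2.7.11b and counted them per gene with HTSeq, and what they deposited is 1 table of raw counts for each library, neither normalized nor pooled. The study normalized with DESeq2 1.22.2. The methods give 3 biological replicates at day 20 and the labels 4, and all 4 were used. Tallies of unassigned pairs were left out of library sizes and tests. Pairs outside exons took 49.8% to 56.1% of the 8 tables.

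Differential expression was tested with edgeR 4.0.16 (R 4.3.3), TMM scaling, filterByExpr at a minimum count of 10 and a robust quasi-likelihood fit of 8 groups over 24 libraries, with two-sided tests and Benjamini-Hochberg adjustment over 17170 genes. All groups share 1 estimate of the spread, since days 24 and 26 have 2 libraries per group. A gene is called at an adjusted p under 0.05. CPM are counts per 1000000 of the TMM-scaled library size, and list scores use a prior count of 2 and centring on all libraries. A gene with at most 3 counts in every library of a day is at the floor of detection, about 0.18 to 0.218 CPM here, and floors cover counting error only. No 2 libraries of a day agreed within sampling noise (chi-square per gene 4.86 to 49.9). The script was tested on simulated data. Genes were placed by symbol with GENCODE M21 (23378 genes) or RefSeq (967), and 111 were not placed.

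The genes named were *Atad2*, the transition protein, protamine and histone variant genes, the 10 largest rises and falls among called genes with a mean of at least 5 CPM and no overlap (clone names and genes at the floor left out), the 3 lowest p-values of each of 24 lists, and the 5 lowest of the genotype difference, with further list members as examples. The comparison, lists and tests were chosen with earlier results of these data known. Alternatives were DESeq2 1.42.0, other scaling and filters, the compared groups alone, a replicate block, a fold threshold and leaving out each library. Others were added after seeing the data, 2 that leave out a pair of libraries and DESeq2 on the 8 KO libraries. A result of the Sertoli cell list is not reported here.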

Additional observations from a re-analysis of the deposited data

Results flagged for a closer look

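In a group of 4 libraries, a library far from the other 3 by Dixon's criterion is found by chance in about 1 of 20 groups, and most of the values here are of that kind. At day 22 *H3f3b* was low in KO_d22_3 at 607 CPM, *Pabpc2* high in KO_d22_2 at 787 CPM, *Cst12* low in KO_d22_4 at 46.7 CPM and *Ssxb8* high in KO_d22_1 at 0.605 CPM. At day 20 *Gpc3* was high in KO_d20_2 at 25.6 CPM and *Plxna4* low in KO_d20_1 at 4.43 CPM, and the endothelial list score was low in KO_d20_1 at -0.33.

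Epididymis genes marked out the same 2 libraries as *Crisp1*. *Rnase9*, a secreted epididymal protein, was at 0.462 CPM in KO_d20_3 and at 1.39 CPM in KO_d22_1, and the epididymis list score reached 1.90 in KO_d22_1. Without these 2 libraries 2141 genes were called, of which 1538 were among the 1821.

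The share of pairs with several alignments was low in KO_d22_4 at 4.74%, the library that was also lowest in macrophage, peritubular, endothelial and Leydig cell scores. For *Gm6408* the log2 change in KO minus that in WT was -2.57, by the test of the difference itself.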

How the results depend on the processing

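Among the changed genes between days 20 and 22 in KO, leaving out 1 of the 24 libraries gave 4 to 3695 calls, with 1 to 2301 higher and 3 to 1394 lower. The count moved over 1.5 times without KO_d20_1 (126), KO_d20_2 (4), KO_d20_3 (1006), KO_d22_1 (2804), KO_d22_2 (6) and WT_d20_2 (3695), and the count of falls alone also without KO_d22_4 (274), WT_d20_4 (368), WT_d22_1 (364), WT_d22_3 (334), WT_d24_2 (360) and WT_d26_1 (364). Without KO_d20_2 and KO_d22_2 the counts were 1 in all, 0 higher and 1 lower, with 2112 at an unadjusted p under 0.05. The fit of the KO groups alone gave 0, 0 higher and 0 lower. The replicate block also gave 0, 0 higher and 0 lower by edgeR (3783 at an unadjusted p under 0.05, lowest adjusted p 0.0995). Same-numbered KO libraries deviated with correlations of 0.06, -0.50, 0.05 and -0.23, and same-numbered WT libraries with 0.17, 0.34, 0.11 and -0.19. No label says what a number marks, and these correlations cannot settle whether it marks a pair. A fold of at least 2 left 865 genes, 759 higher and 106 lower. DESeq2 called 2590, 1958 of them higher, sharing 1782 with edgeR, and without a filter on low counts 315 were lower. The 68 called genes that were named reversed under none of these where they had a value, which their selection from these data made likely. Of them 64 stayed called by DESeq2 and 50 by DESeq2 on the 8 KO libraries, 3 each without KO_d20_2 and without KO_d22_2, 1 without both, and 0 of the 66 tested in the fit of the KO groups alone and with the replicate block.

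The genotype difference of 1 gene became 0 to 77 when 1 library was left out, with 77 without KO_d20_2 and 23 without WT_d20_4. DESeq2 gave 85 (74 with a KO minus WT difference below 0) and the fit without KO_d20_2 and KO_d22_2 gave 393 (386). By edgeR it was 0 with RLE scaling (1468 at an unadjusted p under 0.05), upper-quartile scaling (1469), a minimum count of 50 (1239), no filter (1571), the compared groups alone (1083), the replicate block (1034), and without KO_d20_3 and KO_d22_1 (1485). The WT count ran from 2197 to 3764 when 1 library was left out. The causes were not tested.

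Reversals were limited to uncalled genes near 0 or near the floor. *Hist1h2ba* gave -0.39 to 0.01 with 1 library left out, the last without KO_d22_4. *H3f3a* gave 0.01 with no filter, 0.06 without KO_d20_1 and 0.00 without KO_d22_4, from -0.11 upward. *Rnase9* gave -4.27 without KO_d22_1 and up to 2.80 with another library left out, and without KO_d20_3 and KO_d22_1 it gave -2.69 and *H3f3b* -0.02. *Ssxb8* gave -0.29 without KO_d20_2 and KO_d22_2, -0.34 without KO_d20_3 and KO_d22_1, -0.02 with upper-quartile scaling, and -0.12, -0.35, -0.05 and -0.25 without KO_d20_1, KO_d20_2, KO_d20_3 and KO_d22_1, and 0.83 without KO_d20_4. Genes at the floor of 3 counts at day 20, which include 72 of the genes called higher, have fold changes limited by depth.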

Other observations

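The levels of several named genes in the KO libraries of days 24 and 26 are given here. *Tnp1* was at 159 and 54.9 CPM at day 24 and at 283 and 217 CPM at day 26, and *Prm1* at 443 and 147 CPM and then at 739 and 787 CPM. *Acta2* and *Kit*, lower at day 22, were at 236 and 242 CPM and at 55.5 and 54.3 CPM at day 24, and at 171 and 158 CPM and at 43 and 43.4 CPM at day 26. *Cilp*, at 0.601 to 1.57 CPM at day 22, was at 4.70 and 3.07 CPM at day 24 and at 3.72 and 1.32 CPM at day 26. *Plxna4*, at 2.35 to 4.11 CPM at day 22, was at 10.2 and 6.41 CPM at day 24 and at 8.19 and 7.11 CPM at day 26, against 4.43 to 8.53 CPM at day 20. *Gpc3*, at 4.69 to 11.6 CPM at day 22, was at 15.6 and 12.8 CPM at day 24 and at 7.30 and 6.54 CPM at day 26. *Cd163*, at 0.469 to 1.98 CPM at day 22, was at 2.63 and 1.57 CPM and then at 1.58 and 1.26 CPM. These values are given as measured, from 2 libraries a day, without a test.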
